A study of Rattus norvegicus with 24 samples.

Results

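Kinases add phosphate groups to proteins and phosphatases remove them, and many of both are built from catalytic and regulatory subunits encoded by separate genes. The genes described here are those whose array probes carried a single symbol starting with Prk, with Ppp followed by a digit, with Camk or with Mapk. These were 84 genes, in 14 families, of the 6455 genes named singly on the array, and they were read by 105 of its 10399 probes. A further 2 probes with several symbols were left out.

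Levels were measured in mesenteric arteries, the vessels that carry blood to the intestine, of 12 female Sprague Dawley rats. The ovaries of every rat had been removed at 3 weeks of age, and injections into the abdominal cavity began after 2 weeks of recovery and went on for 4 days, so that the rats were 5.5 weeks old. The vehicle group (animals 3, 4, 5 and 8) received sesame oil, the second group (animals 2, 3, 5 and 8) estradiol benzoate, an ester of the main estrogen, at 0.15 mg per kg per day, and the third (animals 2, 4, 6 and 8) testosterone, the main androgen, at 1 mg per kg per day. No group kept its ovaries, so the comparisons are between hormone replacement and its vehicle. Estradiol can also be formed from testosterone in the body. RNA of whole dissected arteries was used, with 2 arrays, AA and AB, of the same labelled cRNA per animal.

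Levels are given as log2 of the deposited linear intensity, averaged over both arrays of an animal, so that a level of 0 is an intensity of 1 and a difference of 1 is a doubling. The medians of the 24 arrays lay between 0.926 and 0.951, and the AA and AB arrays of an animal correlated at r = 0.976 to 0.993 across all probes. Of the 105 probes, 104 (83 genes) could be tested, with values from no fewer than 3 animals in every group, and 103 had a value in all 12 animals. The probe left out was that of Mapkap1, a subunit of mTOR complex 2. The median SD of a tested kinase or phosphatase probe was 0.120 between the arrays of an animal and 0.195 between animals of a group. The number of animals and arrays limits the precision, and levels of different probes are not compared because each probe has its own hybridisation strength.

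In the artery wall these enzymes set the tone of smooth muscle. PKA (symbols Prkac and Prkar) and PKG (Prkg) act below cAMP and cGMP and relax the muscle, while PKC (Prkc) and calmodulin-dependent kinases (Camk) act below calcium and lipid signals. Myosin phosphatase, made of a PP1 catalytic subunit (Ppp1c) and the targeting subunit Ppp1r12a, lets the muscle relax and is held back by the inhibitor Ppp1r14a (CPI-17). AMPK (Prkaa, Prkab and Prkag) responds to low energy, calcineurin (Ppp3) is the calcium-activated phosphatase of NFAT transcription factors, and the MAP kinases (Mapk) carry growth and stress signals.

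Promoter sequences show which hormone-receptor motifs precede these genes. RefSeq windows of the 250 bases before the gene start (rat build GRCr8) were found for 67 of the 84 genes. The windows of Prkaa2 (chr5:125108325-125108574, minus strand) and Ppp3cb (chr15:3809012-3809261, plus strand) are shown because their probes had the smallest p-values of the family set. That of Ppp1r15a (chr1:105139597-105139846, minus strand) is shown because no other of the 67 held both an estrogen response element half-site and a cAMP response element. The windows run 5′ to 3′ on the gene's strand, and capitals mark a match to a searched motif on either strand.
Prkaa2: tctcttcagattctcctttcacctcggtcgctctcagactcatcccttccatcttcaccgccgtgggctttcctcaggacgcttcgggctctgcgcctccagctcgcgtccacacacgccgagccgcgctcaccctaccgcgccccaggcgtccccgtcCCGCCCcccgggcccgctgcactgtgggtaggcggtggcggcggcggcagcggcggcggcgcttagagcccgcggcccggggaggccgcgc
Ppp3cb: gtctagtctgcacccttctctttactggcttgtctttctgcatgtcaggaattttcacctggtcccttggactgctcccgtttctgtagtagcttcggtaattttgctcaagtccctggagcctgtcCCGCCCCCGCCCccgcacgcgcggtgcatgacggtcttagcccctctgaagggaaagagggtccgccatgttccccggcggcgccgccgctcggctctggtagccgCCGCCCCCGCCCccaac
Ppp1r15a: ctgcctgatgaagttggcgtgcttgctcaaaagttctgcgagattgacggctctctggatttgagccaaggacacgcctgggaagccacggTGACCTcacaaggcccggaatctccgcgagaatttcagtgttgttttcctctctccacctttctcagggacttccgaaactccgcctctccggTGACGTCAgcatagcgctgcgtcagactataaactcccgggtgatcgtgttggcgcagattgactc

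The capitals in the Prkaa2 window are 1 GC box (GGGCGG), and those in the Ppp3cb window are 4 GC boxes. The Ppp1r15a window held 1 half-site of the estrogen response element (AGGTCA) and 1 cAMP response element (TGACGTCA). Both strands were searched. The palindromic estrogen response element was in 0 of the 67 windows and in 0.0219% of all 27457 windows, and the androgen response element in 0 and in 0.0291%. The half-site, which can lie within a palindromic element, was in 4 windows (5.97% against 13.7% of all), those of Mapk4, Ppp1r15a, Ppp4r3a and Prkrip1. The cAMP response element was in 5 (7.46% against 1.70%), those of Mapk10, Mapk1ip1, Ppp1r15a, Ppp2ca and Ppp2r2d. The E-box CACGTG was in 3 (4.48% against 5.79%), the AP-1 site TGANTCA in 0 (0% against 6.36%), and the GC box in 45 (67.2% against 32.4%). These are matches of letters in a short window and describe no binding.

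None of the 104 probes passed an adjusted p of 0.05 (limma, Benjamini-Hochberg over 10228 probes) after either hormone. For estradiol benzoate minus vehicle the share of all probes that passed was 0%, and for testosterone minus vehicle it was 0.0489%. The smallest adjusted p of the set was 0.125 after estradiol benzoate (Prkaa2 and Ppp3cb) and 0.109 after testosterone (Ppp3cb). At an unadjusted p under 0.05 (limma), 12 probes differed after estradiol benzoate (11.5% of the set, against 13.5% of all probes) and 13 after testosterone (12.5%, against 14.0%). These shares lie near the background, so their number says nothing particular about kinase and phosphatase genes.

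By direction, 6 of the 12 were higher after estradiol benzoate (6.77% of all probes were) and 6 were lower (6.69%). After testosterone 9 were higher (6.62%) and 4 lower (7.43%). The 4 animals of one group lay all above the 4 of the other for 5 of 103 probes after estradiol benzoate (3.47% of all probes) and all below for 4 (4.22%). After testosterone this held for 2 (2.41%) and 1 (3.08%) of 104 probes. The median change of the set was 0.01 after estradiol benzoate and 0.04 after testosterone, beside -0.01 for all probes in each. Both hormone comparisons share the 4 vehicle animals, so a probe that was unusual in those animals enters both.

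**Figure D1:**
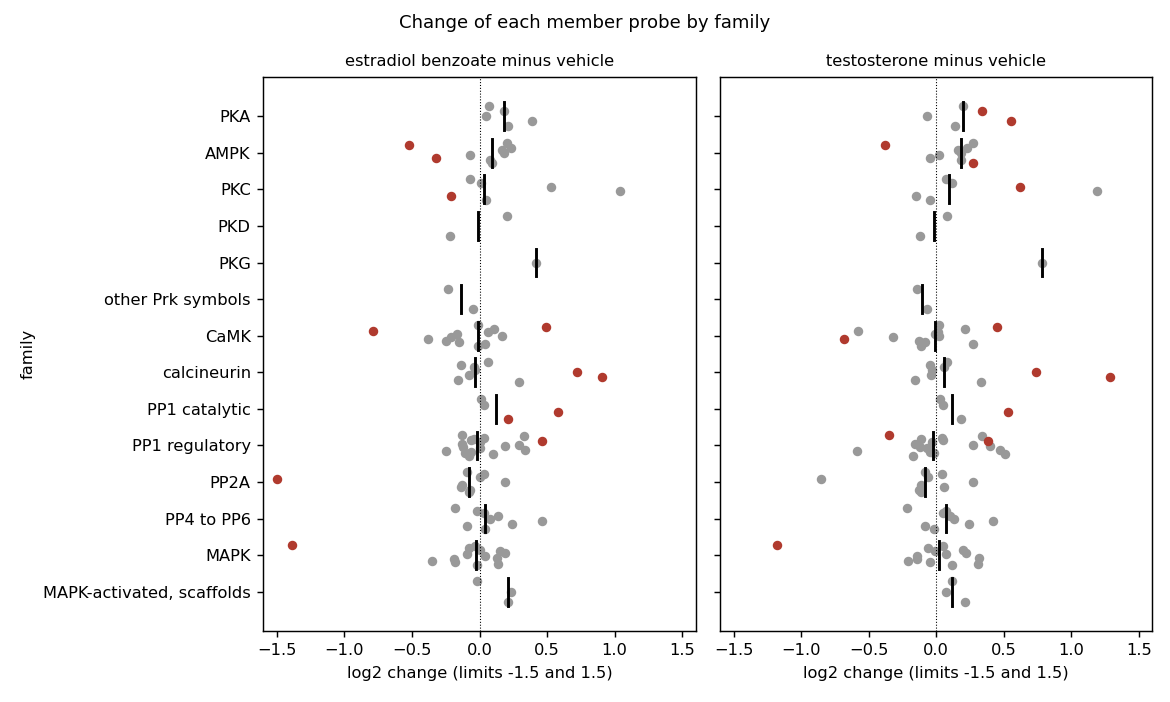
Log2 change of each tested probe (1 point per probe, x axis) by family (y axis), for estradiol benzoate minus vehicle (left) and testosterone minus vehicle (right). Black bars are family medians, red points have an unadjusted p under 0.05, and a point beyond -1.5 or 1.5 is drawn at that limit. Most probes lie within 0.5 of 0, and the red points of calcineurin lie on the right in both panels.

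AMPK is a complex of a catalytic alpha, a scaffold beta and a nucleotide-sensing gamma subunit. The lowest p of the 9 AMPK probes, for 6 genes, was that of Prkaa2 (NCBI gene 78975, the alpha-2 catalytic subunit), which was lower in every hormone-treated animal than in every vehicle animal. The log2 levels were -2.29, -2.42, -2.74 and -2.59 in the vehicle animals, -2.92, -3.13, -3.00 and -3.07 after estradiol benzoate, and -2.83, -2.91, -3.01 and -2.82 after testosterone. The difference from vehicle was -0.52 (SE 0.10, a fold of 0.696) after estradiol benzoate, with an unadjusted p of 0.000324 and an adjusted p of 0.125 (limma). After testosterone it was -0.38 (SE 0.10, a fold of 0.767, adjusted p of 0.210). Prkaa2 thus differed beyond the spread of the animals in the single test, and not after adjustment over all probes. In whole arteries, fewer cells of a type and less RNA per cell cannot be told apart.

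The estradiol benzoate and testosterone groups differed by -0.14 (SE 0.10, adjusted p of 0.999, limma) for Prkaa2. Leaving out 1 animal at a time gave -0.60 to -0.45 after estradiol benzoate and -0.46 to -0.31 after testosterone. With 0.1 added to the intensities before the logarithm, the differences were -0.31 and -0.23. With the arrays kept apart and the animal as a block, the estradiol benzoate difference of -0.52 had an adjusted p of 0.0313 (limma). That setting counts 24 arrays rather than 12 animals as observations, and 2.21% of all probes were called in it.

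The other catalytic subunit, Prkaa1, lay the other way, with a difference of 0.20 (SE 0.13) after estradiol benzoate and 0.27 (SE 0.13) after testosterone, and its groups overlapped. The gamma-2 subunit Prkag2 had 3 probes. Probe 6330 read -0.22, -0.19, -0.57 and -0.37 in the vehicle animals and -0.63, -0.98, -0.51 and -0.49 after estradiol benzoate, a difference of -0.32 (SE 0.14, adjusted p of 0.358, limma). Without the lowest of these animals, estradiol benzoate animal 3, the difference was -0.21. Probe 20148 differed by 0.27 (SE 0.11, adjusted p of 0.330, limma) after testosterone and by 0.09 after estradiol benzoate, and probe 14936 by 0.18 and 0.08. The sign of a Prkag2 change therefore depended on the probe. The scaffold subunits Prkab1 (0.23 after each hormone, SE 0.28) and Prkab2 (0.17 and 0.16, SE 0.15) and the gamma-1 subunit Prkag1 (0.18 after each on probe 8924, -0.07 and 0.02 on probe 21838) overlapped between groups, with unadjusted p-values from 0.204 to 0.840 (limma). The family median was 0.09 after estradiol benzoate and 0.18 after testosterone.

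PKA holds catalytic subunits that regulatory subunits keep inactive until cAMP binds. The 5 PKA probes stood for 5 genes, and those at p under 0.05 were both regulatory subunits, after testosterone. Prkar1a (type I-alpha) read 0.23, 0.25, 0.51 and 0.36 in the vehicle animals, 0.47, 0.35, 0.52 and 0.72 after estradiol benzoate and 0.83, 0.67, 0.54 and 0.65 after testosterone. Each testosterone animal lay above each vehicle animal, with a difference of 0.34 (SE 0.10, adjusted p of 0.243, limma). That difference came from the AB arrays, where it was 0.67, while on the AA arrays it was 0.00. On the AB arrays the mean of the vehicle animals was 0.11 and on the AA arrays it was 0.56, although each pair of arrays had the same cRNA.

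Prkar2b (type II-beta, abundant in fat and brain) read -1.80, -1.87, -1.39 and -1.32 in the vehicle animals and -1.29, -1.40, -0.69 and -0.82 after testosterone. The groups overlapped, and the difference was 0.55 (SE 0.19, adjusted p of 0.277, limma). After estradiol benzoate it was 0.39 (SE 0.19). Prkar2a (type II-alpha) differed by 0.05 and -0.07 (SE 0.08), the catalytic subunit Prkacb by 0.07 and 0.20 (SE 0.15), and the related kinase Prkx by 0.21 and 0.14 (SE 0.11). All 5 probes were above 0 after estradiol benzoate (47.6% of all probes were) and 4 of 5 after testosterone (47.7%), and 0 passed the adjusted test. Animal by animal, the family's median deviation from the mean of the 12 animals was lowest in vehicle animal 3, at -0.28.

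PKC isoforms fall into conventional ones, activated by diacylglycerol and calcium, those that need diacylglycerol alone, and atypical ones that respond to neither. Their 6 probes stood for Prkcb, Prkch, Prkci and Prkcz. Prkci, atypical like Prkcz, had 2 probes that moved apart. Probe 18812 read 1.75, 1.50, 1.69 and 1.56 in the vehicle animals and 1.40, 1.42, 1.45 and 1.40 after estradiol benzoate, with every treated animal lower and a difference of -0.21 (SE 0.08, adjusted p of 0.306, limma). Probe 10809, a dim one, differed by 1.04 (SE 0.68) and read -7.22 in vehicle animal 3 against -4.67 to -3.30 in the other vehicle animals. The isoform Prkch (PKC eta) differed by 0.62 (SE 0.25, adjusted p of 0.324, limma) after testosterone on probe 11022, with overlapping groups, and by 0.12 (SE 0.09) on probe 3142. Without vehicle animal 3 the larger of these differences was 0.41. Prkcb and Prkcz differed by -0.07 to 0.07 in both comparisons.

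Protein kinase D acts below PKC. Prkd3 read 3.83, 3.63, 3.88 and 3.90 in the vehicle animals and 3.59, 3.57, 3.61 and 3.61 after estradiol benzoate. The groups did not overlap, and the difference was -0.22 (SE 0.11, adjusted p of 0.388, limma). Of the probes with a value in all 8 hormone-treated animals, Prkd2 was the only one whose animals did not overlap between the hormones, with 1.22, 1.16, 1.15 and 1.26 after estradiol benzoate and 1.11, 1.07, 1.13 and 1.02 after testosterone, a difference of 0.12 (SE 0.09). The only PKG probe was Prkg2, a type II cGMP kinase, with levels from -8.09 to -3.45 and differences of 0.42 and 0.78 (SE 0.77). Prkra, an activator of the RNA-dependent kinase PKR, differed by -0.23 and -0.14 (SE 0.11) and Prkrip1 by -0.05 and -0.07 (SE 0.08). Among the kinases of artery tone that were looked for, Prkg1, Prkca, Prkcd, Prkce, Prkaca, Mapk3 and Mapkapk2 had no tested probe with a single symbol.

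The Camk symbols cover calmodulin-dependent kinases, their activating kinases and inhibitors, and the calmodulin methyltransferase Camkmt, which is not a kinase. They had 13 probes for 11 genes and a median change of -0.01 after each hormone. Camk2n1, an inhibitor protein of CaMKII, had a lower mean after testosterone. It read 0.79, 1.79, 1.02 and 1.49 in the vehicle animals, 0.70, 0.87, 1.11 and 0.90 after estradiol benzoate and 0.45, 0.75, 0.88 and 0.27 after testosterone. The differences were -0.68 (SE 0.21, adjusted p of 0.243, limma) and, after estradiol benzoate, -0.38 (SE 0.21). The testosterone and vehicle groups overlapped by 1 vehicle animal, number 3, and without the highest vehicle animal, number 4, the testosterone difference was -0.51. With the arrays kept apart and the animal as a block it was -0.70, at an adjusted p of 0.0363 (limma), where 1.48% of all probes were called.

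Camk1g, the gamma form of CaMKI, had higher means after both hormones. The levels were -4.07, -4.26, -3.97 and -4.70 in the vehicle animals, -3.59, -3.73, -3.82 and -3.91 after estradiol benzoate and -3.54, -3.64, -4.06 and -3.98 after testosterone. Every estradiol benzoate animal lay above every vehicle animal (difference 0.49, SE 0.17, adjusted p of 0.285, limma), while the testosterone group overlapped (0.45, SE 0.17, adjusted p of 0.304, limma). On the AB arrays alone the differences were 0.84 and 0.90, and on the AA arrays alone 0.08 and -0.01. The replicate arrays thus disagree on whether Camk1g differed at all.

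For Camk2a, the alpha subunit of CaMKII best known from neurons, the dim probe 21226 differed by -0.79 (SE 0.35) after estradiol benzoate, and probe 1212 by 0.11 (SE 0.14). The delta and gamma subunits of CaMKII, the forms known from smooth muscle, differed by 0.17 and 0.02 (Camk2d, SE 0.13) and by -0.21 and -0.32 (Camk2g, SE 0.26). Camkk2, the kinase that activates CaMKI and AMPK, differed by 0.04 and 0.27 (SE 0.15). The others (Camk1, Camk2b, Camk2n2, Camkk1 and Camkmt) lay between -0.25 and 0.06.

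Calcineurin pairs a catalytic A subunit (Ppp3ca, Ppp3cb) with a calcium-binding B subunit (Ppp3r1). Of its 9 probes for 4 genes, 2 read higher after each hormone at p under 0.05, 1 of Ppp3cb and 1 of Ppp3r1, and the other probes of the same genes did not follow. Ppp3cb (NCBI gene 24675) probe 21503 read -2.17, -1.66, -2.01 and -1.53 in the vehicle animals. It read -1.26, -1.06, -1.14 and -1.01 after estradiol benzoate and -1.02, -1.29, -1.08 and -1.04 after testosterone. All 8 hormone-treated animals lay above all 4 vehicle animals. The differences were 0.72 (SE 0.14, a fold of 1.65, unadjusted p of 0.000228, adjusted p of 0.125, limma) and 0.74 (SE 0.14, a fold of 1.67, unadjusted p of 0.000194, adjusted p of 0.109, limma). The hormones themselves differed by -0.01 (SE 0.14).

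The remaining Ppp3cb probes had narrow spreads and showed no such difference. Probe 12044 read 4.44, 4.16, 4.42 and 4.45 in the vehicle animals and differed by -0.04 and 0.06 (SE 0.14). Probe 14232 read 3.10, 3.08, 3.11 and 3.04 and differed by -0.03 after each hormone (SE 0.07). A change of the size seen on probe 21503 would lie far outside the error of probe 14232. Which part of the transcript each probe reads is not given, and why the probes differ was not tested. The level of vehicle animal 5 on probe 21503 rests on 1 array, as does that of testosterone animal 2. On the AA arrays alone the differences were 0.41 and 0.47, and on the AB arrays alone 0.94 and 0.88.

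Leaving out 1 animal at a time, the Ppp3cb differences on probe 21503 ran from 0.61 to 0.83 after estradiol benzoate and from 0.63 to 0.84 after testosterone. The highest value, without vehicle animal 8, reached an adjusted p of 0.0490 (limma) after testosterone. With the arrays kept apart and the animal as a block, both passed, at adjusted p of 0.0305 and 0.0306 (limma). That setting takes 1 correlation between the arrays of an animal for all probes, and counts 24 arrays rather than 12 animals as observations. In that setting 2.21% of all probes were called after estradiol benzoate and 1.48% after testosterone, against 0% and 0.0489% with the arrays of an animal averaged.

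Ppp3r1, the B subunit, had a similar split. Probe 22030 read -3.77, -2.40, -2.64 and -2.01 in the vehicle animals, -1.91, -1.72, -1.92 and -1.63 after estradiol benzoate and -1.34, -1.07, -1.11 and -2.15 after testosterone. Every estradiol benzoate animal lay above the vehicle animals (difference 0.91, SE 0.34, adjusted p of 0.306, limma), and 3 of 4 testosterone animals did (1.29, SE 0.34, adjusted p of 0.210, limma). Without vehicle animal 3, the lowest, the differences were 0.55 and 0.93. Probe 18919 of the same gene differed by -0.08 and -0.04 (SE 0.08), with all 4 estradiol benzoate animals, at 2.50 to 2.53, just below the vehicle animals, at 2.54 to 2.68. The A subunit Ppp3ca differed by 0.06 and 0.08 (SE 0.13) on probe 16611 and by -0.14 and -0.05 (SE 0.09) on probe 22339, and the testis form Ppp3r2 by -0.16 to 0.33 over its 2 probes. The family medians were -0.03 and 0.06.

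**Figure D2:**
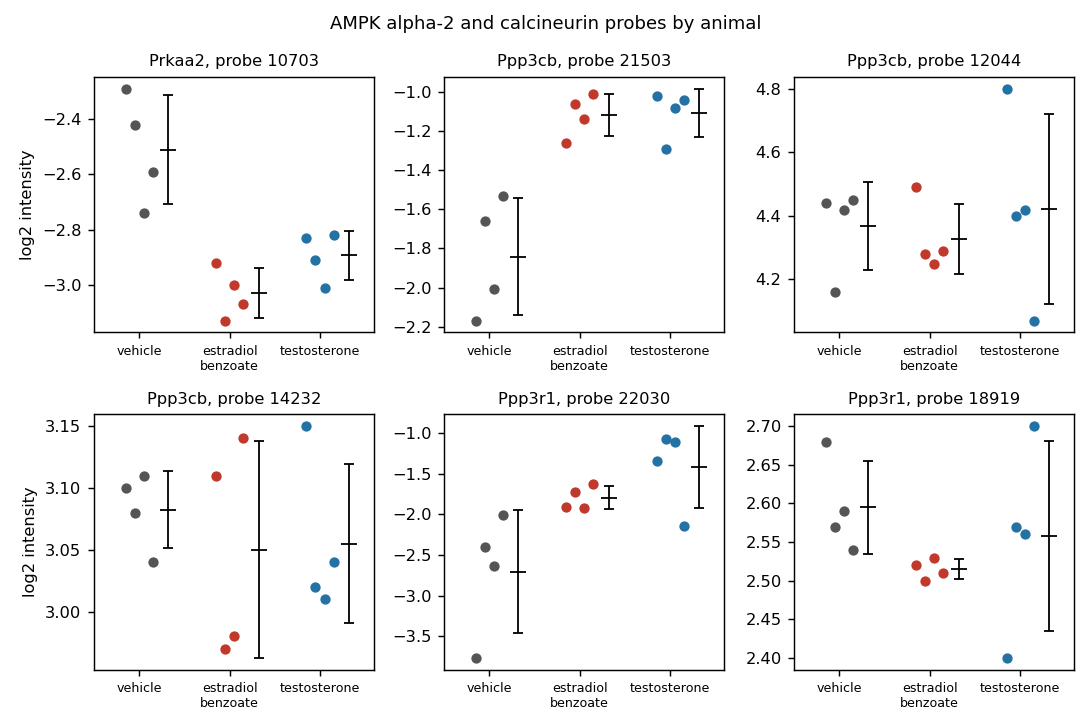
Log2 intensity (y axis, 1 scale per panel) of Prkaa2 and of the Ppp3cb and Ppp3r1 probes in each of the 4 animals of the 3 groups (points), with the group mean and SD beside them. Prkaa2 is lower and Ppp3cb probe 21503 higher in all 8 hormone-treated animals, while Ppp3cb probes 12044 and 14232 overlap between groups.

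PP1 has catalytic subunits of 3 genes, each measured. Ppp1cc read 2.11, 2.24, 2.41 and 2.41 in the vehicle animals and 2.51, 2.58, 2.47 and 2.45 after estradiol benzoate. Those groups did not overlap (difference 0.21, SE 0.09, adjusted p of 0.351, limma), and after testosterone the difference was 0.18 (SE 0.09). Once each level was centred on the probes nearest in number, it was 0.08 after estradiol benzoate. Ppp1cb, the beta form found in myosin phosphatase, differed by 0.58 and 0.53 (SE 0.22, adjusted p of 0.311 and 0.331, limma) on probe 21515, with overlapping groups, and by 0.03 and 0.05 (SE 0.12) on probe 808. Without vehicle animal 3 the differences on probe 21515 were 0.41 and 0.36. Ppp1ca differed by 0.01 and 0.03 (SE 0.13).

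Among the 18 probes of PP1 regulatory subunits (17 genes), Ppp1r15a (GADD34, the stress-induced subunit that directs PP1 to the translation factor eIF2-alpha) had the smallest p after estradiol benzoate. It read -1.36, -1.35, -1.88 and -1.79 in the vehicle animals and -0.95, -1.20, -1.34 and -1.07 after estradiol benzoate, without overlap, and -0.85, -1.32, -1.15 and -1.52 after testosterone. The differences were 0.46 (SE 0.17, adjusted p of 0.306, limma) and 0.38 (SE 0.17, adjusted p of 0.344, limma). They were 0.58 and 0.52 on the AA arrays and 0.23 for each on the AB arrays. Ppp1r11, inhibitor 3 of PP1, differed by -0.35 (SE 0.14, adjusted p of 0.318, limma) after testosterone, and by -0.23 without testosterone animal 8.

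For the subunits of myosin phosphatase control the groups overlapped. Ppp1r12a (MYPT1) differed by 0.33 and 0.34 (SE 0.23) and the inhibitor Ppp1r14a (CPI-17) by -0.04 and -0.11 (SE 0.21). The PKA-dependent inhibitors Ppp1r1a (0.29 and 0.27, SE 0.18) and Ppp1r1b (DARPP-32, 0.19 and 0.40, SE 0.19) were higher on average with overlapping groups. The remaining regulatory subunits ran from -0.25 to 0.34 after estradiol benzoate and from -0.59 to 0.51 after testosterone, with 0 at p under 0.05.

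PP2A joins a catalytic, a scaffold and a variable B subunit. Its catalytic subunits stayed close between groups. Ppp2ca differed by 0.03 and 0.04 (SE 0.07) on probe 10633 and by -0.09 and -0.08 (SE 0.10) on probe 530, and Ppp2cb by -0.00 and -0.06 (SE 0.11). The B subunit Ppp2r2c, best known from brain, had the largest difference of the set, -3.78 (SE 1.10, adjusted p of 0.232, limma) after estradiol benzoate. Its mean signal stood at the 0.205 percentile of all tested probes, and it read -7.18, -6.62, -4.10 and -4.19 in the vehicle animals and -7.63, -7.98 and -12.29 in 3 estradiol benzoate animals. Estradiol benzoate animal 5 had no value and was left out of this fit, and the probe is not in the counts of groups without overlap that involve estradiol benzoate, although the 3 animals with a value lay below every vehicle animal and every testosterone animal (-6.71 to -5.74). With 0.1 added to the intensities the difference was -0.27.

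The B subunit Ppp2r2d differed by 0.19 and 0.27 (SE 0.13). The 3 probes of Ppp2r5c differed by -0.14 to -0.07 after estradiol benzoate and by -0.13 to 0.06 after testosterone, and Ppp2r5e by -0.08 and -0.11 (SE 0.09). The related phosphatases PP4, PP5 and PP6 had 9 probes, of which 0 passed p under 0.05. Ppp5c, which works with the chaperone Hsp90 on steroid receptor complexes, differed by 0.46 and 0.42 (SE 0.22), and Ppp4r1 by -0.18 and -0.22 (SE 0.12). The others lay between -0.09 and 0.24.

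The MAP kinases had 14 probes for 11 genes, with medians of -0.03 and 0.02. The only probe at p under 0.05 was Mapk10 (JNK3, best known from neurons). It read -4.37, -6.53, -6.19 and -4.47 in the vehicle animals, -6.03, -7.10, -7.13 and -6.86 after estradiol benzoate and -6.66, -7.51, -5.97 and -6.15 after testosterone. The groups overlapped, with differences of -1.39 (SE 0.52, adjusted p of 0.306, limma) and -1.18 (SE 0.52, adjusted p of 0.344, limma). With 0.1 added to the intensities both were -0.24, and without vehicle animal 3 they were -1.05 and -0.84. At a mean level of -6.27, close to that of Mapk10 (-6.25), the running medians of all probes by signal were -0.30 and -0.21. Of the widely expressed stress kinases, p38-alpha (Mapk14) differed by 0.19 and 0.22 (SE 0.11) and JNK1 (Mapk8) by -0.35 and -0.21 (SE 0.17) on probe 6309 and by -0.18 and -0.05 (SE 0.12) on probe 16014. JNK2 (Mapk9) differed by 0.14 and 0.31 (SE 0.15) on probe 822 and by -0.02 and 0.12 (SE 0.17) on probe 21637. Mapk6 (ERK3) differed by 0.13 and 0.32 (SE 0.15), and ERK5 (Mapk7) by -0.19 and -0.14 (SE 0.12). The other MAP kinases (Mapk4, Mapk11, Mapk12, Mapk13 and Mapk15) lay between -0.14 and 0.20.

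Mapkapk5, a kinase switched on by ERK3 and p38, differed by 0.21 after each hormone (SE 0.12). The JNK scaffold Mapk8ip1 differed by 0.23 and 0.07 (SE 0.27), and Mapk1ip1 by -0.02 and 0.12 (SE 0.16). The untested Mapkap1 had group means of 0.01, -0.05 and -0.23 in the vehicle, estradiol benzoate and testosterone animals with a value.

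**Figure D3:**
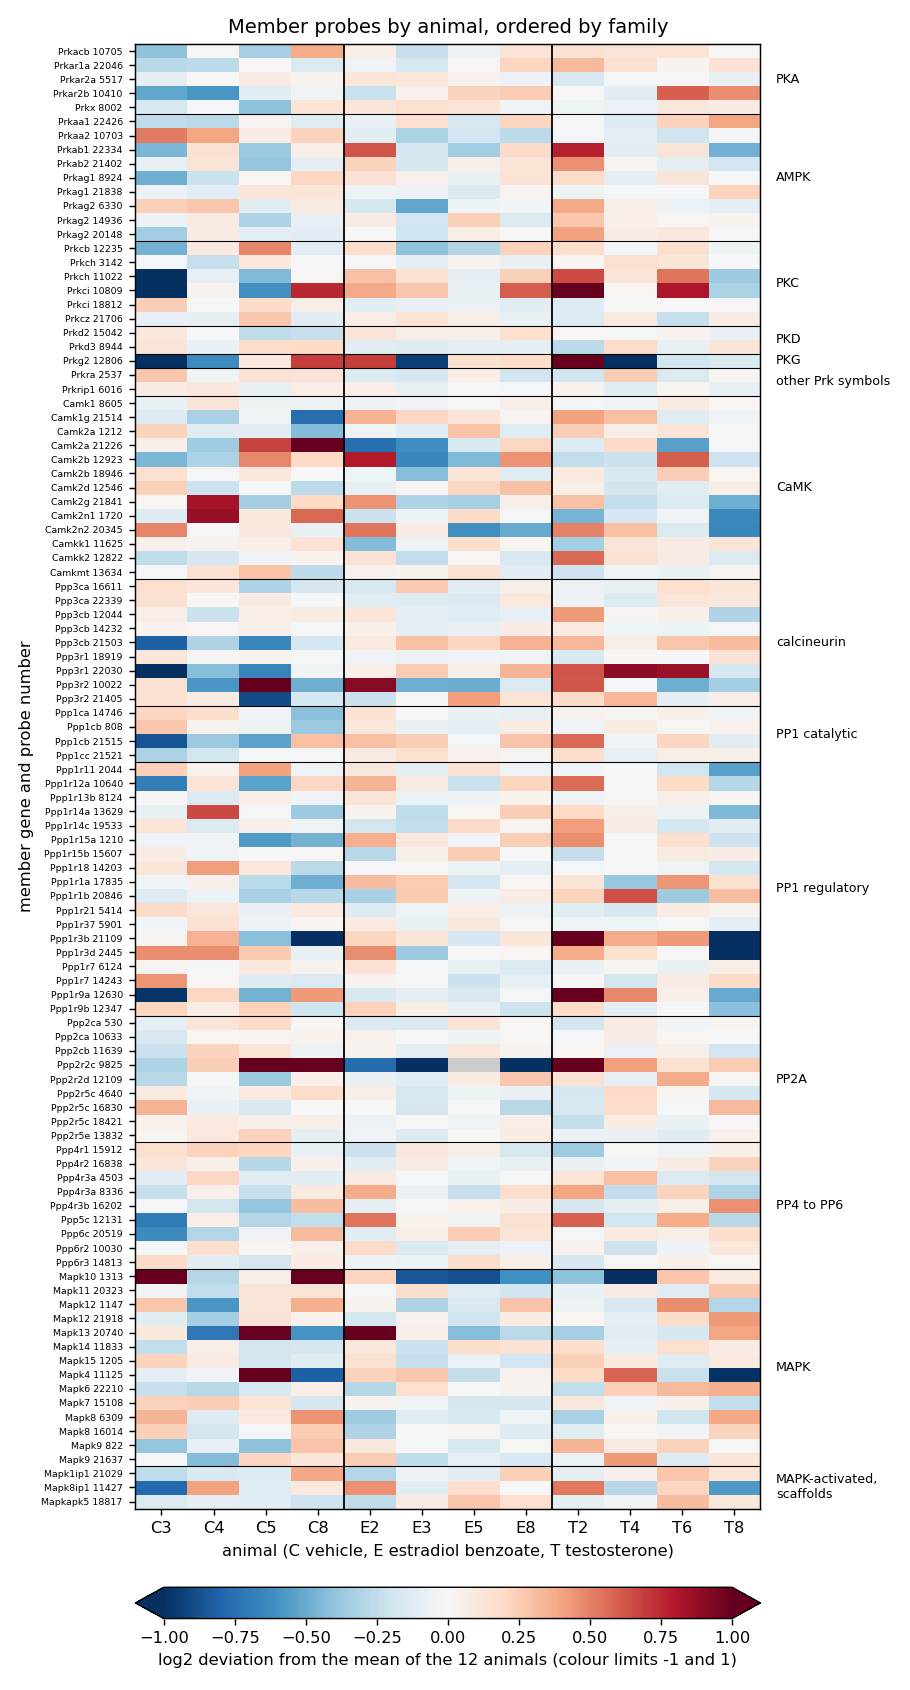
Log2 deviation of each of the 104 tested probes (y axis, by family) from its mean over the 12 animals (x axis, C vehicle, E estradiol benzoate, T testosterone), with colours limited at -1 and 1 and a missing value in grey. Single animals stand out in several dim probes, such as vehicle animal 3 in Prkci probe 10809 and in Ppp3r1 probe 22030.

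The hormones were compared directly as well. For estradiol benzoate minus testosterone, 0 of 104 probes passed the adjusted test (0.0293% of all probes did), with a smallest adjusted p of 0.999 (limma). At an unadjusted p under 0.05 there was 1 probe (0.962%, against 4.13% of all), with 0 higher (2.41%) and 1 lower (1.71%). This was Ppp2r2c, at -2.92 (SE 1.10), which depends on the dim values above. The animals did not overlap for 1 of 103 probes in the higher direction, Prkd2 (1.87% of all), and for 0 in the lower (1.14%). The median was -0.03, beside -0.00 for all probes, and 36 of 104 differences were above 0, against 48.5% of all probes. In the test of any difference among the 3 groups, 0 passed the adjusted F test (0.00978% of all did), and 11 had an unadjusted p under 0.05 (10.6%, against 11.9%). A p that misses the threshold does not show that the hormones act alike on these genes.

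Different probes of a gene often disagreed. Of the 18 genes with several probes (3 with 3 and 15 with 2), the probes had the same sign in 6 after estradiol benzoate and in 7 after testosterone. No such count is given for the other genes of the array, so this is not a trait of the set. The median gap between the probes of a gene was 0.24 and 0.23, more than the median SD between animals. The AA and AB arrays of the same cRNA gave the same sign for 66.7% of 102 probes of the set after estradiol benzoate and for 71.6% after testosterone, beside 7520 and 7461 of all 10021 probes with both. Most of these changes are small, so that a sign near 0 carries little.

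Changes also moved with the probe number, the number that names each probe in the deposited table. This was looked at after the results were seen. The 650 probes with a number above 21000 had median changes of 0.10 and 0.15, and 16.6% and 17.1% of them were higher at p under 0.05, against 6.10% and 5.91% of the other 9578. The set has 20 probes above 21000. Of these 5 were higher at p under 0.05 after each hormone, among them Ppp3cb probe 21503, Ppp3r1 probe 22030, Ppp1cb probe 21515 and Camk1g. Of the other 84 probes 1 was higher after estradiol benzoate and 4 after testosterone. In vehicle animal 3 the probes above 21000 had a median deviation of -0.15, and in testosterone animal 2 of 0.17. Centring each level on its nearest neighbours by probe number left differences of 0.58 for Ppp3cb probe 21503 after each hormone, and of 0.77 and 1.13 for Ppp3r1 probe 22030. Prkaa2 does not lie in that range, and its centred differences were -0.60 and -0.50. What the probe number stands for is not given in the sources used here, and its part in these results was not tested further. Changes moved with signal too. In 4 bins of all probes by mean signal, bin 2 (next to dimmest) had 8.84% higher and 4.18% lower at p under 0.05 after estradiol benzoate. For testosterone these were 10.5% and 5.16%. The brightest bin had 4.22% and 8.84%, then 1.80% and 9.93%. Ppp3cb probe 21503, Ppp3r1 probe 22030, Prkar2b and Ppp1r15a lie in bin 2. Prkaa2 lies in bin 1, with 8.56% and 8.10%, then 10.3% and 8.60%. The part of signal was not tested further.

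**Figure D4:**
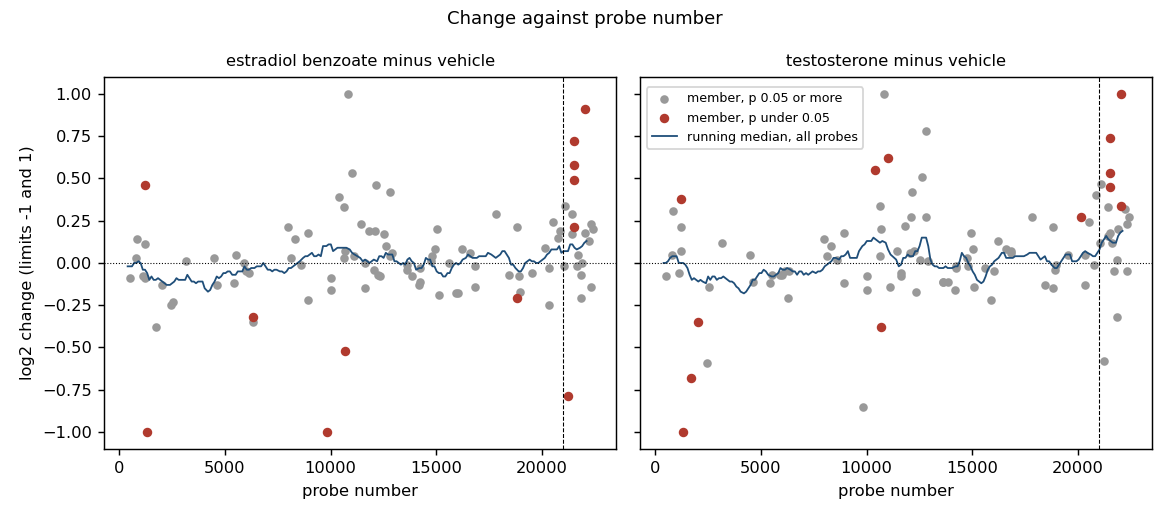
Log2 change (y axis, limited at -1 and 1) of each tested kinase or phosphatase probe against its probe number (x axis), for estradiol benzoate minus vehicle (left) and testosterone minus vehicle (right). Red points have an unadjusted p under 0.05, the blue line is the running median of all probes, and the dashed line marks 21000. To the right of it lie 20 of the 104 probes, of which 5 are higher at p under 0.05 in each panel.

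Genes that work with these enzymes were described from lists of their regulators and targets, and 0 of the probes on these lists passed the adjusted test in either hormone comparison. Counts of higher and lower probes on the lists are at an unadjusted p under 0.05 (limma). Over all probes, 6.77% were higher and 6.69% lower after estradiol benzoate, and 6.62% and 7.43% after testosterone. On the list of cAMP signalling and PKA anchoring (20 probes for 18 of 27 genes), 0 were higher and 4 lower after each hormone. Among them was Akap12 probe 4931, an anchoring protein of PKA and PKC, at -0.54 and -0.42 (SE 0.10, adjusted p of 0.125 and 0.160, limma). Its probe 1237 differed by -0.32 and 0.05 (SE 0.19). The others were the cyclases Adcy2 and Adcy8 and the transcription factor Creb1, at -0.24 and -0.23 (SE 0.10).

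On the AMPK list (10 probes for 8 of 13 genes), 4 were higher at p under 0.05 after estradiol benzoate (6.77% of all probes were). After testosterone 3 were higher (6.62%), and 0 were lower after either hormone (6.69% and 7.43%). These included both probes of Acaca, the AMPK substrate that makes malonyl-CoA for fatty acid synthesis, at 0.72 (SE 0.25) and 0.95 (SE 0.36) after estradiol benzoate, as well as Acacb (0.66, SE 0.25) and Rptor (0.49, SE 0.15), a partner of mTOR. Both Acaca and Prkar2b are abundant in fat cells. The summed intensity of 3 of 7 listed white fat cell genes was 48.2 to 60.3 in the vehicle animals, 54.2 to 61.0 after estradiol benzoate and 50.5 to 67.8 after testosterone. Fabp4 differed by 0.30 and 0.26, Aqp7 by 0.47 and 0.50 and Adipoq by -0.08 and -0.06. The summed intensity of 3 of 4 brown fat cell genes was 3.75 to 4.49, 5.07 to 6.26 and 4.01 to 5.47. Every estradiol benzoate animal thus lay above the vehicle animals. Cidea, whose probe was the brightest and weighs most in the sum, differed by 0.47 and 0.15, and Cpt1b by 0.55 and 0.32. Ucp1 differed by -0.00 and 0.04 on probe 10040 and by 0.18 and 0.13 on probe 10404. The part of fat in these levels was not tested.

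On the list of calmodulin and calcineurin partners (11 probes for 7 of 13 genes), 1 was higher after estradiol benzoate, Rcan2 probe 17507, an inhibitor protein of calcineurin, at 0.57 (SE 0.21). Its probe 14230 differed by 0.33 (SE 0.15), and after testosterone the probes differed by 0.29 and 0.07. On the MAPK cascade list (11 probes for 10 of 28 genes) 0 were higher and 1 lower after estradiol benzoate, Map4k3 at -0.36 (SE 0.08, adjusted p of 0.159, limma), and 1 was higher and 3 lower after testosterone. Of the MAPK phosphatases (6 of 11 genes) 0 differed after estradiol benzoate at p under 0.05, while Dusp7 was higher and Dusp4 lower after testosterone, at 0.38 and -0.57.

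The tissue label was checked against markers, of which 0 probes passed the adjusted test in any comparison. Marker counts are at an unadjusted p under 0.05 (limma). Over all probes, 6.77% were higher and 6.69% lower after estradiol benzoate, and 6.62% and 7.43% after testosterone. Smooth muscle Cnn1 (calponin) and Smtn were the only 2 of 10 listed smooth muscle genes with a tested probe, and their summed intensity was 35.5 to 52.8, 31.9 to 43.7 and 34.1 to 44.7 in the vehicle, estradiol benzoate and testosterone animals. The endothelial genes (6 of 7) summed to 55.3 to 62.0, 46.3 to 58.3 and 53.9 to 65.8. Lymphocyte genes (7 probes for 6 of 11 genes) summed to 1.35 to 1.94, 1.56 to 2.06 and 1.46 to 2.05, and 5 of their probes were higher at p under 0.05 after estradiol benzoate and 3 after testosterone. Neuron genes (6 of 7) ran from 1.66 to 2.86 over all animals. Dividing-cell genes (6 probes for 5 of 8 genes) summed to 12.7 to 26.5 in the vehicle animals, 7.29 to 16.9 after estradiol benzoate and 9.78 to 22.8 after testosterone. All 6 probes had differences below 0 after each hormone, while 47.6% and 47.7% of all probes were above 0. The medians of the 6 probes were -0.77 and -0.19, and 2 were lower at p under 0.05 after estradiol benzoate and 0 after testosterone. Striated muscle genes (12 probes for 11 of 23 genes) summed to 7.59 to 11.2, 7.85 to 11.1 and 8.65 to 13.3 in the vehicle, estradiol benzoate and testosterone animals.

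Genes of neighbouring organs had uneven levels among the animals, and 0 of their probes passed the adjusted test in any comparison. Pancreas genes (9 of 14) summed to 0.734 to 1.42 in the vehicle animals. After estradiol benzoate they reached 100 in animal 3, 5.16 in animal 8 and 1.89 in animal 5, with 0.920 in animal 2, and after testosterone they ran from 0.750 to 2.50. Of the 9 probes, 6 were higher at p under 0.05 after estradiol benzoate (median difference 2.85) and 1 after testosterone (0.45). Of all probes 6.77% and 6.62% were higher. Liver genes (9 probes for 8 of 13 genes) summed to 34.8 in vehicle animal 5, 7.0 in vehicle animal 3, 4.88 in vehicle animal 4 and 2.47 in vehicle animal 8, against 2.27 to 2.87 in the hormone-treated animals. Of their probes 4 were lower at p under 0.05 after estradiol benzoate (6.69% of all probes were) and 6 after testosterone (7.43%). Without vehicle animal 5, Prkaa2 differed by -0.60 and -0.46 after estradiol benzoate and testosterone, and Ppp3cb probe 21503 by 0.67 and 0.68. Without estradiol benzoate animal 3, the estradiol benzoate differences were -0.49 for Prkaa2 and 0.70 for Ppp3cb. Macrophage genes had no tested probe among the 5 listed. The part of other cell types in the kinase and phosphatase levels was not tested.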

How the data were processed

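Arteries of 12 animals, 4 per group, were measured on 24 single-colour CodeLink arrays. The authors deposited linear spot intensity, with array medians just below 1. How spots were scanned, corrected for background, scaled or filtered was not stated by the labels. Intensity values at or below 0 and blanks were treated as missing, log2 was taken without a pseudocount, and arrays AA and AB of an animal were averaged.

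Group means were modelled in limma 3.58.1 (R 4.3.3) for the 10228 probes with a value in at least 3 animals per group, with Benjamini-Hochberg adjustment over all of them. Called means an adjusted p under 0.05. The groups come from the labels, which do not say whether the animals shared litters or cages, and p-values measure only the spread between these animals. Gene names come from the platform annotation, and a check by gene ID against the reference table found all 105 probes of the set, with 0 symbols changed.

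The 59 probes (45 genes) described singly were every probe of Prkaa2 and Ppp3cb, up to 8 with the smallest p per comparison, the 2 with the smallest F-test p per family, the tested genes of 30 listed for artery tone (22 were), and further probes of these genes. Others are given by range or because they complete a family. The genes and lists were chosen with earlier results of these data known. On data simulated for estradiol benzoate minus vehicle, with 200 changed probes among 10228, limma found 158 at a log2 change of 1 and 187 at a change of 2. It also called 8 and 14 unchanged probes. Smaller changes, such as those of Prkaa2 (-0.52) and Ppp3cb probe 21503 (0.72) after estradiol benzoate, were not simulated. The recovery therefore does not show how many changes of that size would be found. Alternatives covered scaling, pseudocount, filters, array handling, the samples fitted, the prior, weights, the replicate block and leaving out each animal; cyclic loess and centring by probe number were added after seeing the data. Promoters were searched with Python 3.11.15.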

Additional observations from a re-analysis of the deposited data

Results flagged for a closer look

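In 7 of the 176 groups of 4 animals examined, 1 animal stood apart from the others of its group by Dixon's criterion at the 95% level, which chance alone meets in about 1 of 20 groups.

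In the vehicle group, animal 4 read 4.16 for Ppp3cb probe 12044, against 4.42 to 4.45 in the others. Vehicle animal 3 read 3.84 for the PP2A catalytic subunit Ppp2ca (probe 10633), against 4.02 to 4.04. After estradiol benzoate, animal 8 read 1.58 for Ppp3ca probe 22339, against 1.33 to 1.36. Estradiol benzoate animal 3 read -0.93 for Mapk14, against -0.61 to -0.54. After testosterone, animal 8 read -0.23 for Prkacb, against -0.11 to -0.09. Testosterone animal 2 read 1.15 for Prkag2 probe 14936, against 0.89 to 0.93, and 1.38 for Prkci probe 18812, against 1.50 to 1.51. These distances are small on the log2 scale, and none of the probes concerned passed an adjusted p of 0.05 in limma.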

How the results depend on the processing

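In the counts of probes over the 27 settings, the 0 calls after each hormone and in the F test changed with the arrays kept apart and the animal as a block, which gave 2 calls in each. That is 1.92% of the set, near the 2.21%, 1.48% and 2.48% of all probes called there after estradiol benzoate, after testosterone and in the F test. The calls were Prkaa2 (-0.52, adjusted p of 0.0313, limma) and Ppp3cb probe 21503 (0.72, 0.0305) after estradiol benzoate, and Ppp3cb (0.73, 0.0306) and Camk2n1 after testosterone. Leaving out 1 animal gave 0 to 1 calls after testosterone, with the Ppp3cb difference at 0.63 to 0.84, and 1 call without vehicle replicate 8, where 0.108% of all probes were called.

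The 12 probes at p under 0.05 after estradiol benzoate were 6 with values required on all arrays, which leaves 64 probes of the set (9.38%, against 13.3% of all probes), and 7 on AA alone (6.73%, against 11.7%). The 13 after testosterone were 7 of those 64 with values on all arrays (10.9%, against 13.6%), 21 of 102 on AB alone (20.6%, against 13.8%), 7 with only the groups compared in the fit (6.73%, against 10.2%) and 3 by the exact permutation test (2.88%, against 5.48%). With 1 animal left out they ran from 8 (without testosterone animal 2, 7.69% against 10.7%) to 20 (without vehicle animal 8, 19.2% against 16.1%). The 1 probe between the hormones was 0 with the pseudocount (4.01% of all), without dim probes (4.25%) or with values on all arrays (4.23%), 2 on AB alone (3.95%), 2 by the exact permutation test (3.00%) and 0 to 2 with 1 animal left out. Camk1g turned to -0.01 after testosterone on AA alone. The causes were not tested.

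With the animal number as a replicate block, 3 probes differed between the hormones at p under 0.05 (6.20% of all did), 12 after estradiol benzoate (12.2%) and 11 after testosterone (9.67%), and 0 were called. Deviations from the group mean over all tested probes correlated at -0.115 to 0.297 (median 0.043) between the 7 pairs of animals with the same number. Between the other 41 pairs across groups they correlated at -0.278 to 0.239 (median -0.02). The ranges overlap, and 7 pairs cannot decide whether the numbers pair the animals.

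The number of animals limits what can be called, and differences of dim probes depend on signal over background.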
